A study of Mus musculus with 9 samples.

Results

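The miR-297, miR-466, miR-467 and miR-669 families are groups of closely related microRNAs (miRNAs) found in rodents. Members were all mature names of the deposited count table that begin with one of these 4 numbers. Rows of a name listed on several precursors were reduced to the largest row, and names with identical counts were merged. This gave 36 names in 137 rows on 73 listed precursors, which became 29 merged members among the 1048 mature miRNAs of the table. The miR-466 and miR-669 families had 11 merged members each, the miR-467 family 4 and the miR-297 family 3. Identical counts also merged names across families, miR-466m-5p with miR-669m-5p (3 counts in all) and miR-297c-5p with miR-466l-5p (1 count). The former was placed under miR-466 and the latter under miR-297. Of the 29, 27 had at least 1 count, 6 passed the filter on low counts and were tested, and miR-669g and miR-669n were listed at 0 in every library. The names were 32 5p arms and 4 names with no arm.

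A miRNA is cut from a hairpin precursor, and bases 2 to 8 of the mature strand, the seed, pair with target messenger RNAs. Most hairpins of these families lie in a single intron of Sfmbt2, which encodes a Polycomb-group protein and is an imprinted gene known for its roles in the placenta. The cluster is made of tandem copies, so that several hairpins give mature strands of the same or nearly the same sequence. A read from such a strand cannot be assigned to a single copy.

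The source was the lateral cortex of mice of the C57BL/6 strain, taken at embryonic day 14.5, from which 3 cell populations were sorted for small RNA sequencing (3 libraries each). Proliferating progenitors carried neither of the reporter signals R and G, differentiating progenitors carried R without G, and newborn neurons carried G. All cells came from mice with endogenous fluorescent reporters, whose genes are not given in the sources used here. The proliferating population was gated by the absence of both signals, so that it can also hold unlabelled cells that are not progenitors. Nothing in the labels says whether the libraries of a population came from separate litters, so p-values measure the spread between these libraries, which may be technical.

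The counted miRNA reads per library ran from 821741 to 3858723. The upper limit that a count of 0 allows, 3 counts, corresponds to 0.777 to 3.65 CPM before TMM scaling. CPM are counts per 1e6 counted miRNA reads, scaled by TMM factors. Intervals of shares and the limit of 3 counts cover counting error only. Intervals of log2 changes come from the edgeR fit and include the spread between libraries. Erythroid miRNAs (miR-451a and miR-144-5p) summed to 259 to 341 CPM in proliferating, 0.875 to 2.76 CPM in differentiating and 0 to 2.35 CPM in newborn neuron libraries. Mural or mesenchymal miRNAs, mostly miR-143-3p, summed to 452 to 574, 38.6 to 41.5 and 18.0 to 37.8 CPM in the same order. The haematopoietic list ran at 46.8 to 58.2, 19.98 to 36.7 and 8.62 to 9.37 CPM, and the endothelial miR-126a-5p at 17.8 to 26.0, 11.0 to 12.2 and 5.46 to 12.5 CPM. Of the 5 neuronal miRNAs, 4 rose and 1 fell in newborn neurons against proliferating progenitors, and their sum was 1903 to 1964 CPM in the latter and 2211 to 2841 CPM in the former. Of all 190 miRNAs tested, 31.1% were called as rising and 25.8% as falling in that comparison. In the haematopoietic and neuronal lists all names in the table were 5p arms, so these sums leave out any 3p arm.

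RefSeq (GRCm38) lists 82 hairpin genes of the 4 families, of which 72 lie within Sfmbt2 (chr2:10370510-10595253, plus strand) and 10 elsewhere. All 72 are on the same strand as Sfmbt2. They run from position 10466663 to 10518279, over 51.6 kb, with a median gap of 209 bases between neighbours. In the GENCODE annotation this stretch lies inside a single intron at chr2:10461473-10523944, which is intron 10 of one protein-coding transcript of Sfmbt2 and intron 11 of another, both with 23 exons. Within Sfmbt2 stand 24 of 29 miR-466 genes, 14 of 17 miR-467 genes, 29 of 30 miR-669 genes and 5 of 6 miR-297 genes. Copies of miR-466, miR-467 and miR-669 alternate along much of the stretch, which the map of hairpins shows.

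**Figure D1:**
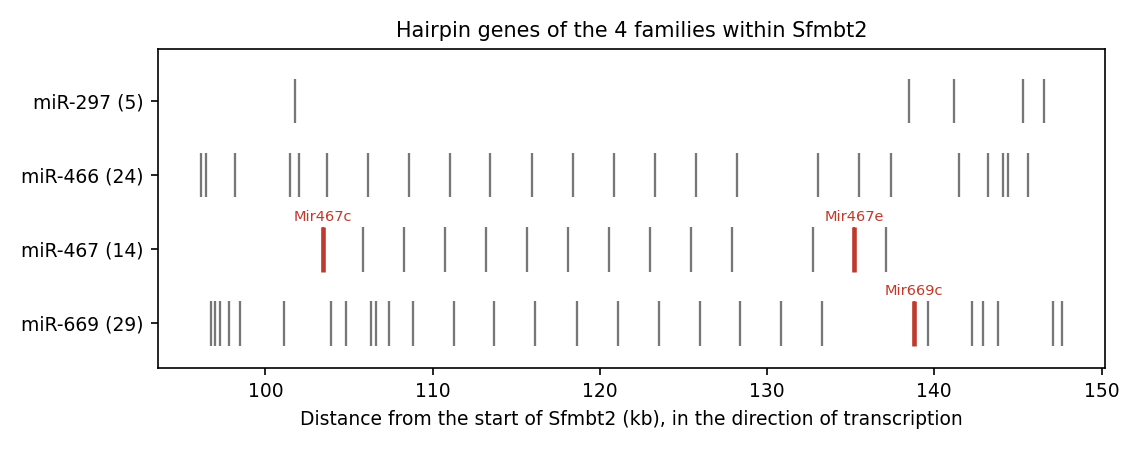
Hairpin genes of the 4 families inside Sfmbt2, as distance in kb from the start of the gene in the direction of transcription. Each tick is 1 of the 72 hairpin genes, with the number per family in parentheses, and red ticks mark the hairpins of Mir467c, Mir467e and Mir669c, each the single precursor of a tested member.

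Mature sequences of 2 of the 36 names were matched in RefSeq's table for GRCm38.p6, miR-466k and miR-669n. They are shown as the only ones available, and neither stands for the families. The seed is in capitals, written 5′ to 3′. MiR-466k is at chr3:85467396-85467418 and miR-669n at chr3:115979905-115979924, both on the plus strand.
miR-466k: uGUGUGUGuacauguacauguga
miR-669n: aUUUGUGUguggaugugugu
No other mature miRNA of the RefSeq table had either seed. The table lacks the other member names, all tested members among them, so their seeds could not be compared.

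The same table held 1 hairpin of each family, all of them outside Sfmbt2, and they are shown with every run of UG repeats of 6 or more bases in capitals. Mir466k is at chr3:85467377-85467498 (plus strand), Mir669n at chr3:115979902-115979955 (plus strand), Mir297-1 at chr7:10958437-10958512 (minus strand) and Mir467h at chr9:115381819-115381939 (plus strand).
Mir466k: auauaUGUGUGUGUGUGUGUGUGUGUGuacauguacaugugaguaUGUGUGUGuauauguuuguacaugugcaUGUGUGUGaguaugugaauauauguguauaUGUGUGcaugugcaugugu
Mir669n: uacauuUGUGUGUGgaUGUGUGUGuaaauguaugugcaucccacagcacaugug
Mir297-1: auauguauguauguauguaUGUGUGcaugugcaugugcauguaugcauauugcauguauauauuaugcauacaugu
Mir467h: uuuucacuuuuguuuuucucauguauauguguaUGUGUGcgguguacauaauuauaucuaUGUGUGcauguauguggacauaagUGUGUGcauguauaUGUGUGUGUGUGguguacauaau
The motif UGUGUG, searched on the RNA strand of the hairpin, was in all 4 of them and in 68 of all 997 hairpins of the table (6.82%). The longest run of UG repeats was 22 bases, in Mir466k.

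Copies of the cluster also showed in the counts themselves. MiR-467a-5p and miR-467b-5p had the same counts on all 11 of their listed precursors, and miR-669a-5p and miR-669p-5p had the same counts on all 14 of theirs. MiR-466b-5p and miR-466o-5p were identical as well and are listed on 10 precursors, 2 of which also carry miR-466e-5p with the same counts. In all, 50 of the 73 precursors carried 2 or more member names, and 10 carried names of different families. A member listed on several precursors is therefore a pool of copies, and which copy made the reads cannot be told from these counts.

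The listed names of the families, with no 3p arm among them, were a small part of the counted miRNA reads. The share of all 4 together ran from 0.0220% of counted reads in newborn neuron library 2 (95% Wilson interval 0.0199% to 0.0242%) to 0.0386% in proliferating library 3 (0.0346% to 0.0431%). Of the 3713 counts of all members, 42.4% were of miR-467a-5p/miR-467b-5p and 22.6% of miR-669c-5p. The 6 tested members held 87.3%. Abundance ranks were 74 of 556 miRNAs with counts for miR-467a-5p/miR-467b-5p and 101 for miR-669c-5p.

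Summed over the families, the level was 369 ± 43.8 CPM (SD, n = 3) in proliferating progenitors. It was 250 ± 27.0 CPM in the differentiating and 228 ± 3.32 CPM in the newborn neuron libraries. The proliferating libraries ran from 324 to 412 CPM, above the differentiating libraries at 220 to 270 CPM and the newborn neuron libraries at 225 to 231 CPM. Most of the counts behind this were of the miR-467 family. It summed to 254 ± 52.1 CPM in proliferating, 123 ± 23.3 CPM in differentiating and 115 ± 15.4 CPM in newborn neuron libraries, and the proliferating libraries did not overlap with either of the other populations. The miR-669 family summed to 88.5 ± 7.45, 80.1 ± 25.3 and 84.2 ± 4.43 CPM in the same order, with overlapping libraries. The miR-466 family was at 24.1 ± 10.3, 44.5 ± 13.6 and 25.5 CPM (16.9 to 39.2 CPM over its 3 libraries), and the miR-297 family at 2.93 ± 1.69, 2.70 ± 0.07 and 2.58 ± 1.07 CPM, from 1 to 14 counts per library. These sums are given with no test, and summing all rows of a name in place of the largest raised each of them, as such sums count the same reads on several precursors. In sorted cells sequenced in bulk, fewer cells that make a miRNA and less of it per cell cannot be told apart.

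**Figure D2:**
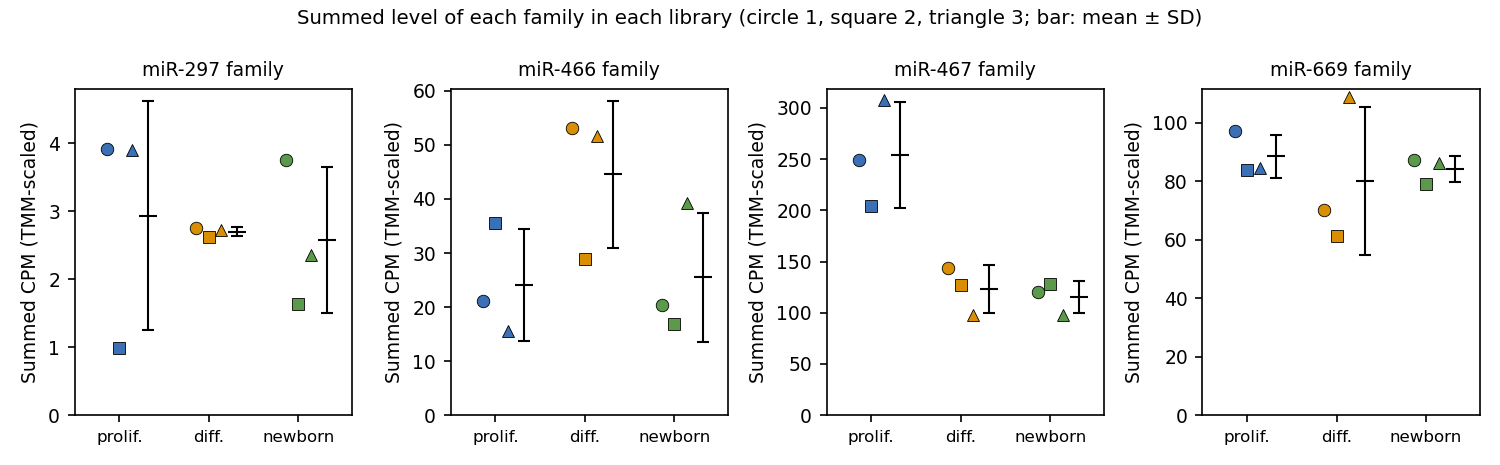
Summed level of each family, in CPM scaled by TMM factors, in the 3 libraries of proliferating progenitors, differentiating progenitors and newborn neurons (circle, square and triangle for libraries 1, 2 and 3), with the mean ± SD beside them. The miR-467 family was at 204 to 308 CPM in proliferating libraries and at 97.9 to 144 CPM in the 6 other libraries, while the libraries of the other 3 families overlapped between populations.

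MiR-467a-5p/miR-467b-5p, the most abundant member, was highest in proliferating progenitors and lower by about the same amount in both later populations. It had 260, 154 and 196 counts in the proliferating libraries, 155, 113 and 95 in the differentiating libraries and 327, 180 and 95 in the newborn neuron libraries. On the CPM scale these were 203, 152 and 255 in the first population, 107, 98.8 and 64.6 in the second and 87.6, 98.3 and 74.5 in the third. Every proliferating library stood above every other library, and the differentiating and newborn neuron libraries overlapped.

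In edgeR's quasi-likelihood test over all 190 miRNAs tested, with Benjamini-Hochberg adjustment, miR-467a-5p/miR-467b-5p fell by 1.17 (log2) from proliferating to differentiating progenitors (SE 0.23, adjusted p = 0.00176), which is 2.25-fold lower. From proliferating progenitors to newborn neurons the log2 change was -1.22 (SE 0.23, edgeR adjusted p = 0.000236). Between differentiating progenitors and newborn neurons the log2 change was -0.05 (95% interval -0.54 to 0.45, edgeR adjusted p = 0.928). Both falls passed the threshold of 0.05 in each of the 21 alternative settings that were run, with log2 changes from -1.34 to -0.94 and from -1.43 to -1.05. The summed erythroid, mural, haematopoietic and endothelial miRNAs given above were also highest in proliferating progenitors. Within the haematopoietic list, miR-146a-5p was at 3.91 to 11.8 CPM in proliferating, 8.96 to 17.7 CPM in differentiating and 0.803 to 1.57 CPM in newborn neuron libraries. The part of these miRNAs in the result was not tested.

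The other members of the family were less abundant, at no more than 28.6 CPM in any library. MiR-467c-5p, cut from the single hairpin Mir467c (chr2:10473931-10474027, in the Sfmbt2 intron), had 29, 29 and 18 counts in proliferating libraries, 24, 17 and 25 in differentiating libraries and 42, 27 and 10 in newborn neuron libraries. Its CPM were 22.7, 28.6 and 23.4, then 16.5, 14.9 and 17.0, then 11.2, 14.7 and 7.8 in the same order. The 3 populations did not overlap, with the level lowest in newborn neurons. Only the difference between the ends of the lineage passed the test, with a fall of 1.11 from proliferating progenitors to newborn neurons (SE 0.28, edgeR adjusted p = 0.00252), and it did so in each of the 21 alternatives. The single steps gave log2 changes of -0.62 (edgeR adjusted p = 0.157) and -0.49 (edgeR adjusted p = 0.161).

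MiR-467e-5p, from Mir467e (chr2:10505721-10505807, in the same intron), had 24, 17 and 19 counts in proliferating libraries, 26, 15 and 19 in differentiating libraries and 68, 22 and 16 in newborn neuron libraries. Its CPM were 18.8, 16.8 and 24.7, then 17.9, 13.1 and 12.9, then 18.2, 12.01 and 12.5, with overlap between all populations. Its log2 changes were -0.43 from proliferating to differentiating progenitors (edgeR adjusted p = 0.397) and -0.43 to newborn neurons (edgeR adjusted p = 0.229). MiR-467d-5p was below the filter, with 6, 7 and 4 counts in proliferating, 4, 0 and 5 in differentiating and 11, 5 and 4 in newborn neuron libraries. At that depth it was higher in each proliferating library than in any of the others on the CPM scale.

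Without miR-467a-5p/miR-467b-5p, the rest of the miR-467 family summed to 46.2, 52.3 and 53.3 CPM in proliferating libraries. The sums were 37.2, 28.0 and 33.3 CPM in differentiating libraries and 32.4, 29.5 and 23.5 CPM in newborn neuron libraries. The higher level in proliferating progenitors was thus also present in this sum, though miR-467e-5p on its own overlapped between all populations. The sum was not tested.

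**Figure D3:**
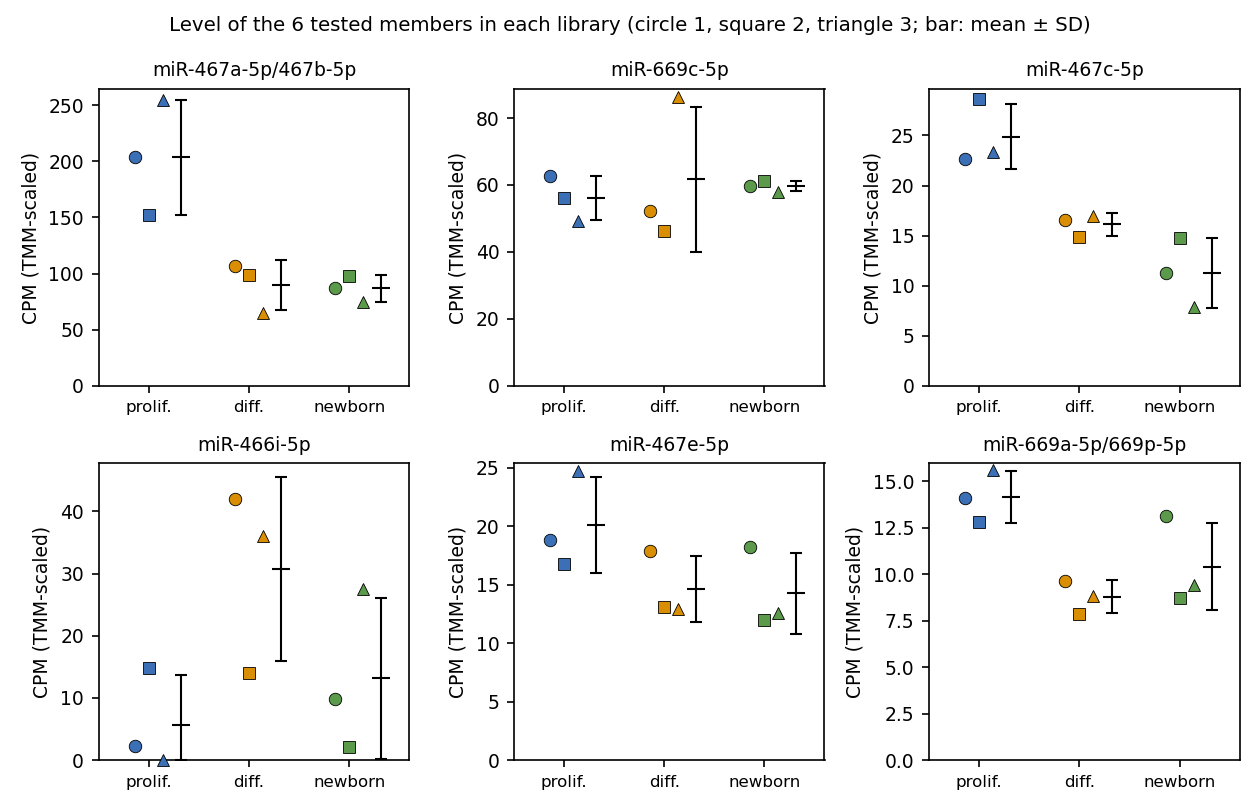
Level of the 6 tested members in each library, in CPM scaled by TMM factors, with a separate linear axis for each member (circle, square and triangle for libraries 1, 2 and 3; mean ± SD beside them, with the SD bar stopped at 0). All proliferating libraries of miR-467a-5p/miR-467b-5p are above 150 CPM and all other libraries below 110 CPM, whereas the populations overlap for miR-669c-5p and miR-466i-5p.

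MiR-669c-5p, the most abundant member of the miR-669 family, had overlapping libraries in all 3 populations and was not called in any comparison. Its single hairpin, Mir669c (chr2:10509296-10509404), lies in the same intron as most miR-467 hairpins. It had 80, 57 and 38 counts in proliferating libraries, 76, 53 and 127 in differentiating libraries and 223, 112 and 74 in newborn neuron libraries. Its CPM were 62.6, 56.2 and 49.4, then 52.4, 46.4 and 86.3, then 59.7, 61.1 and 58.0. Differentiating library 3 stood highest, and the populations overlapped.

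The fitted log2 changes of miR-669c-5p were 0.14 from proliferating to differentiating progenitors (95% interval -0.38 to 0.66), -0.06 from there to newborn neurons (-0.55 to 0.44) and 0.08 over both steps (-0.43 to 0.59). The intervals exclude a change as large as the fall of miR-467a-5p/miR-467b-5p. Without differentiating library 3 the first value was -0.18.

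Within a library, the ratio of the counts of these most abundant members does not depend on the scaling. MiR-467a-5p/miR-467b-5p had 3.25, 2.70 and 5.16 counts for each count of miR-669c-5p in the proliferating libraries. The ratio was 2.04, 2.13 and 0.748 in differentiating libraries and 1.47, 1.61 and 1.28 in newborn neuron libraries. The proliferating libraries were above all others. The pair was taken as the most abundant members after their values were seen, and no test was made.

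MiR-669a-5p/miR-669p-5p, listed on 14 precursors, had 18, 13 and 12 counts in proliferating libraries, 14, 9 and 13 in differentiating libraries and 49, 16 and 12 in newborn neuron libraries. Its CPM were 14.1, 12.8 and 15.6, then 9.6, 7.9 and 8.8, then 13.1, 8.7 and 9.4. The differentiating libraries were all below the proliferating libraries, and those of newborn neurons overlapped with both. The log2 changes were -0.67 (edgeR adjusted p = 0.164), 0.29 (edgeR adjusted p = 0.456) and, over both steps, -0.38 (edgeR adjusted p = 0.325). With all rows of each name summed, the first and the last of these passed the threshold (edgeR adjusted p = 0.0222 and 0.0297). That sum repeats the same counts on all 14 precursors, so its smaller p-values are no further support for a fall.

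Among miR-669 members below the filter, miR-669b-5p had 49 counts in all, miR-669d-5p and miR-669o-5p 41 each, miR-669l-5p 38 and miR-669f-5p 13. MiR-669l-5p had 5 counts in each proliferating library and 2 in each differentiating library, which on the CPM scale was 3.91 to 6.50 against 1.36 to 1.75. MiR-669d-5p had 8, 3 and 5 counts against 3, 2 and 3. In newborn neurons miR-669l-5p had 7, 3 and 7 counts, and its CPM overlapped with both progenitor populations. Fewer than 10 counts were seen for miR-669h-5p and miR-669k-5p.

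MiR-466i-5p was the single tested member called as rising from proliferating to differentiating progenitors. RefSeq places its hairpin outside the Sfmbt2 cluster (Mir466i, chr13:17747473-17747593). The counts were 3, 15 and 0 in proliferating libraries, 61, 16 and 53 in differentiating libraries and 37, 4 and 35 in newborn neuron libraries. Its CPM were 2.35, 14.8 and 0, then 42.0, 13.99 and 36.0, then 9.91, 2.18 and 27.4 in the same order. Differentiating libraries 1 and 3 stood above all others, while differentiating library 2 was just below proliferating library 2.

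The fitted rise of miR-466i-5p was 2.39 log2 units (SE 0.77, edgeR adjusted p = 0.0451), with a biological coefficient of variation of 0.584 against 0.161 over all miRNAs. In 10 of the 21 alternatives the rise was no longer past the threshold, among them those without proliferating library 1 or 3, differentiating library 1 or 3 or newborn neuron library 1 and that with the replicate number as a block (adjusted p = 0.0713), with adjusted p over the alternatives from 4.95e-08 to 0.208. Without proliferating library 2 it was 4.37. From differentiating progenitors to newborn neurons the log2 change was -1.37 (edgeR adjusted p = 0.0884), and from proliferating progenitors to newborn neurons 1.02 (edgeR adjusted p = 0.315).

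The table held another row of miR-466i-5p, on the precursor that also carries miR-466k. It had 3, 2 and 1 counts in proliferating libraries, 25, 6 and 16 in differentiating libraries and 9, 3 and 8 in newborn neuron libraries. On the CPM scale it ran at 1.30 to 2.35, 5.25 to 17.2 and 1.64 to 6.27. In this smaller row, which did not pass the filter on low counts and so has no test, every differentiating library was above every proliferating library. Proliferating library 3 had 1 count in the smaller row and 0 in the larger, so that count is not shared. Whether the other counts of both rows are of the same reads is not given in the sources used here.

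**Figure D4:**
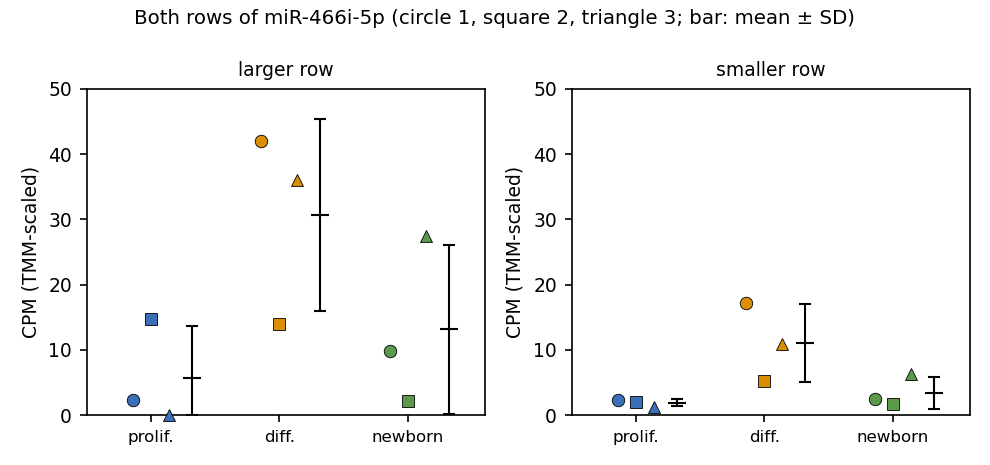
CPM of both rows of miR-466i-5p in each library, on the same axis (circle, square and triangle for libraries 1, 2 and 3; mean ± SD beside them, with the SD bar stopped at 0). In the larger row differentiating library 2 (13.99 CPM) is beside proliferating library 2 (14.8 CPM), and in the smaller row the lowest differentiating library (5.25 CPM) is above the highest proliferating library (2.35 CPM).

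Without miR-466i-5p the miR-466 family was at 18.8, 20.7 and 15.6 CPM in proliferating libraries, 11.0, 14.9 and 15.6 CPM in differentiating libraries and 10.4, 14.7 and 11.8 CPM in newborn neuron libraries. Every newborn neuron library was below every proliferating library. Among its members below the filter, miR-466c-5p had 61 counts, miR-466b-5p/miR-466o-5p 42, miR-466e-5p 28, miR-466h-5p 24 and miR-466p-5p 16. MiR-466c-5p had 10, 5 and 4 counts in proliferating libraries, 7, 7 and 7 in differentiating libraries and 12, 4 and 5 in newborn neuron libraries, and its CPM were lowest in newborn neurons. MiR-466k, whose sequence is printed above, had 6 counts in all. Of the miR-297 family, miR-297b-5p had 25 counts and miR-297a-5p 14.

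The 3 pairwise comparisons share libraries, each population being in 2 of them, and are given side by side. Across the 6 tested members, 1 was called as rising and 1 as falling from proliferating to differentiating progenitors. Among all 190 miRNAs tested, 7.89% were called as falling and 7.89% as rising in that comparison. The libraries did not overlap and were lower in differentiating progenitors for 3 of the 6, miR-467a-5p/miR-467b-5p, miR-467c-5p and miR-669a-5p/miR-669p-5p, against 20.5% of all tested. The median log2 change of the 6 was -0.52, beside 0.04 over all 190.

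Between differentiating progenitors and newborn neurons none of the 6 was called by edgeR, while 44.2% of all tested miRNAs were. DESeq2 also called none of the 6. At an unadjusted p under 0.05, 1 of the 6 was counted by edgeR, against 51.6% of all tested. The median log2 change was -0.05 beside 0.02 over all.

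Between proliferating progenitors and newborn neurons 2 of the 6 were called as falling and none as rising. Of all tested, 25.8% were called as falling and 31.1% as rising. The same 2 had libraries that did not overlap, against 28.4% of all tested, so these counts are near the background. In the joint test of any difference among the populations 3 of the 6 were called, against 58.9% of all tested.

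Of the 13 members below the filter with 10 or more counts, 5 were lower in every differentiating library than in any proliferating library, against 10.3% of all 126 miRNAs in that range of counts. These were miR-466e-5p, miR-467d-5p, miR-669d-5p, miR-669f-5p and miR-669l-5p. Before scaling, the counts of all but miR-669l-5p overlapped or tied between these populations. MiR-669f-5p had 1, 1 and 1 counts in proliferating and 0, 0 and 1 in differentiating libraries, so its order rests on the scaling of a single count. In newborn neurons 4 of the 13 were lower than in any proliferating library, against 15.9%. No library had more than 18 counts of any of these members, and some share reads, so the counts are a description.

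**Figure D5:**
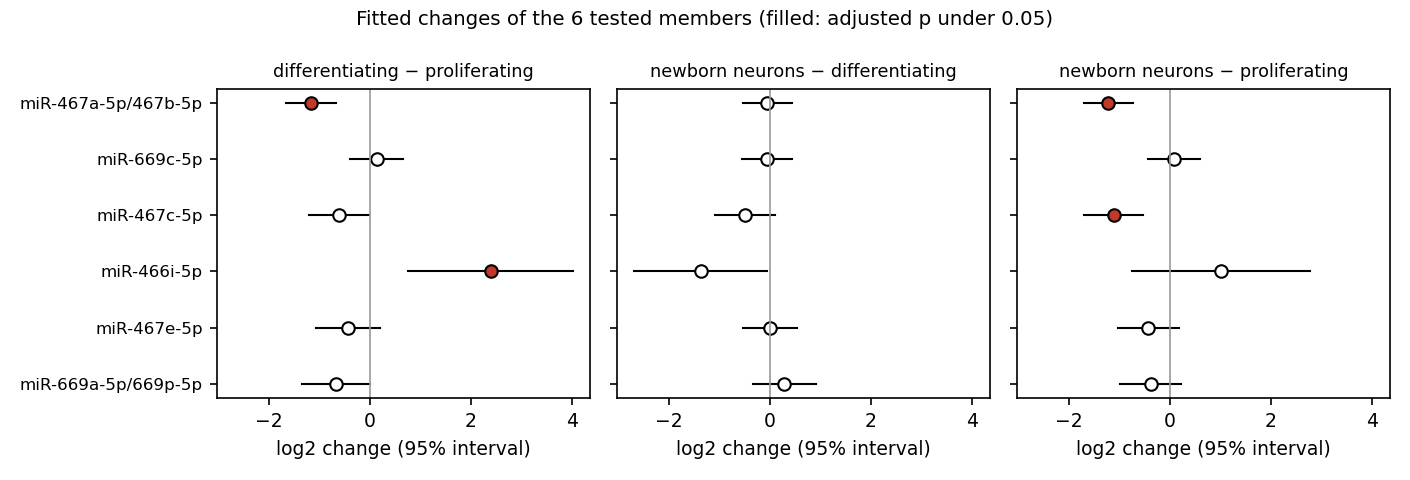
Fitted log2 changes of the 6 tested members in the 3 pairwise comparisons, with 95% intervals, filled where the edgeR adjusted p was under 0.05. MiR-467a-5p/miR-467b-5p is lower in both comparisons with proliferating progenitors, at -1.17 and -1.22, while all 6 are unfilled between differentiating progenitors and newborn neurons.

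MiRNAs of other imprinted loci were read from the same test. Of 5 miRNAs from the Mest, H19, Igf2 and Gnas loci, 3 were tested, none was called in either single step, and miR-298-5p rose by 0.56 on the log2 scale from proliferating progenitors to newborn neurons (edgeR adjusted p = 0.00252). Of the 44 miRNAs of the Dlk1-Dio3 locus in the table, a large imprinted cluster active in neurons, 21 were tested. Of these, 3 were called as rising from proliferating to differentiating progenitors, 18 from there to newborn neurons and 19 over both steps, and none was called as falling. Over all 190 miRNAs tested, 7.89% were called as rising and 7.89% as falling in the first of these comparisons. In the second, 44.2% were called in either direction. Over both steps, 31.1% were called as rising and 25.8% as falling. Their median log2 changes were 0.41, 1.16 and 1.54. The difference between this locus and the 4 families was not tested.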

How the data were processed

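Per the labels' protocols, papain-dissociated cortical cells were sorted by reporter fluorescence, and their total RNA was made into libraries with a small RNA kit. The submitters' processing notes name bcl2fastq 1.8.2, DESeq2 and the build mm10 (GRCm38). The aligner, the counting tool, the treatment of reads that match several hairpins and the miRNA release are not given in the sources used here. The authors deposited whole-number read counts per mature miRNA and precursor, not normalised, 1 column per library. Of 1433 rows, 1211 had a database accession and were used, and 222 predicted rows were left out.

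The largest row of each mature name was kept, because rows of a name mostly repeat the same reads, and names with identical counts were merged. EdgeR 4.0.16 in R 4.3.3 was run on all 9 libraries (filterByExpr by population, TMM, estimateDisp, glmQLFit, glmQLFTest), with no covariate. The filter kept 190 miRNAs with 99.97% of counts. Benjamini-Hochberg adjustment ran over these 190, with 0.05 as threshold. Counts of differentiating against proliferating progenitors were also simulated, and 184 miRNAs passed the filter. Of these, 16 of 20 changes of 2-fold and 19 of 19 of 4-fold were recovered, and 2 of 145 unchanged miRNAs were called. The simulation gave every miRNA the common biological coefficient of variation of 0.161. That of miR-466i-5p was 0.584, so these rates do not carry over to each member. All members that passed the filter were described in full, and those below it were named from 10 counts. The members and lists were chosen with earlier results of these data known. Libraries of a population differed by more than sampling noise. Libraries with the same replicate number deviated together in all 3 pairs of differentiating progenitors and newborn neurons (r = 0.136, 0.228 and 0.102). They did not in all pairs with proliferating progenitors. The main fit took no account of such pairing, which entered only as the replicate block among the alternatives. Nothing in the labels says what a number marks. Alternatives covered scaling (DESeq2 size factors, total counts with and without miR-9-5p), filters, how rows and names were combined, predicted rows, DESeq2 1.42.0, a replicate block, fits of only the populations compared and each library left out.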

Additional observations from a re-analysis of the deposited data

Results flagged for a closer look

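Some members had further rows in the table that the comparisons do not use, each above the 3 counts that a count of 0 allows in at least 1 library. The unused row of miR-466i-5p reached 25 counts, in differentiating library 1. The unused rows of miR-466b-5p reached 5 counts each, and that of miR-297a-5p reached 4. The values of the unused row of miR-466i-5p are given with that miRNA above.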

How the results depend on the processing

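The falls of miR-467a-5p/miR-467b-5p in both comparisons with proliferating progenitors, and that of miR-467c-5p in newborn neurons, kept direction and call in all 21 alternatives. From proliferating to differentiating progenitors, 2 members were called, and 1 with total counts, with total counts without miR-9-5p, with predicted rows added and in DESeq2. The one lost was miR-466i-5p. With total counts the median log2 change of all tested miRNAs moved from 0.041 to 0.15 between the progenitor populations and from 0.0019 to 0.13 between proliferating progenitors and newborn neurons. Over all 9 same-number pairs of libraries, deviations correlated from -0.07 to 0.25. They were above 0.1 in all 3 pairs of differentiating progenitors and newborn neurons and in 5 of the 9 pairs, and 8 of 9 libraries matched best with their own number. With the replicate block 1 member was called from proliferating to differentiating progenitors, miR-466i-5p being lost, and the block changed no other call. With every row as its own feature the counts of calls were 24, 1 and 23 in the pairwise comparisons (in the order differentiating against proliferating progenitors, newborn neurons against differentiating progenitors and newborn neurons against proliferating progenitors) and 25 in the joint test, since the same reads are then counted on many precursors. With the rows of a name summed, which mostly repeat the same reads, they were 3, 2 and 5 in the same order and 6 in the joint test. The members gained were miR-669a-5p/miR-669p-5p in the first, miR-466i-5p and miR-466c-5p in the second and miR-669a-5p/miR-669p-5p, miR-466c-5p and miR-466b-5p/miR-466o-5p in the third. The summed CPM of the families in proliferating progenitors, differentiating progenitors and newborn neurons were then 6.84, 5.43 and 4.98 for miR-297, 82.7, 94.3 and 61.97 for miR-466, 2288, 1024 and 983 for miR-467 and 279, 199 and 228 for miR-669. Between differentiating progenitors and newborn neurons 1 member, miR-466i-5p, was called with no filter and in a fit of only these populations. Leaving out each library gave 1 to 2, 0 to 1 and 2 to 3 calls in the pairwise comparisons and 2 to 3 in the joint test.

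Signs turned only for changes that were not called. Between differentiating progenitors and newborn neurons miR-467e-5p, at 0.00097, was -0.067 with DESeq2 size factors, -0.00018 with total counts, -0.062 with no filter, -0.098 with a stricter filter, -0.012 with the replicate block and -0.090 in a fit of only these populations. It was -0.091 with rows summed or with near-identical names merged, -0.093 with no names merged, -0.097 with predicted rows and -0.078 in DESeq2, and -0.35 to 0.11 without each library. In that step miR-467a-5p/miR-467b-5p was 0.030 and miR-669c-5p 0.042 with total counts without miR-9-5p. Without each library the former ran from -0.25 to 0.023, miR-669c-5p from -0.32 to 0.26 and miR-669a-5p/miR-669p-5p from -0.055 to 0.39. MiR-669c-5p ran from -0.18 to 0.38 from proliferating to differentiating progenitors and from -0.017 to 0.11 over both steps. The cause of these changes was not tested. Depth limits all members below the filter.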
